A study of Mus musculus with 6 samples.

Results

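The genes described here encode translation initiation factors, the proteins that bring a ribosome to the start codon of a messenger RNA, together with the kinases and binding proteins that carry an eIF name. They are the genes whose symbol in the array's platform annotation starts with Eif and a digit, leaving out Eif2ak2, Eif2s3x and Eif2s3y, each read by the brightest of its probe sets. The rule found 44 genes, of 18193 with a probe set of their own, and 125 probe sets, of 45101. The list is not complete: Eif1, Eif2s1, Eif3g, Eif3j and Eif4g1 are not among the 44 genes. Of the 44 genes, 43 reached a log2 intensity of 5 (32 units) in at least 3 of the 6 arrays and were tested with 12927 genes in all. Eif4a3, a helicase of the exon junction complex, did not, and read between 3.57 and 24.3 units on its only probe set.

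Initiation begins when eIF2 carries the initiator tRNA to the small ribosomal subunit, where eIF1, eIF1A, eIF5 and the many-subunit factor eIF3 also sit. The eIF4F complex, made of the cap-binding protein eIF4E, the scaffold eIF4G and the helicase eIF4A, recruits this assembly to the capped end of the messenger. Cells limit the process by phosphorylating eIF2, which blocks its exchange factor eIF2B, and by sequestering eIF4E on 4E-binding proteins. MicroRNAs, which need the nuclease Dicer to mature, repress translation and destabilise their target messengers.

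RNA came from mouse embryonic stem (ES) cells kept undifferentiated and was measured on Affymetrix arrays, 3 for each of 2 cell lines. The line D4 is Dicer +/- and is called heterozygous here. The line 27H is Dicer -/- and is called null. Both groups carry at least 1 disrupted copy of Dicer, no unmodified line was measured, and each genotype is 1 line, so an effect of Dicer and a trait of the line cannot be told apart.

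Nothing in the labels ties the 3 arrays of a line to separate cultures, and the p-values measure only the spread between arrays, which may be technical. The median intensity of an array lay between 49.1 and 52.7 units in heterozygous and between 44.9 and 46.5 in null cells. Dicer1 itself was at 1098 ± 39.2 against 1197 ± 62.2 units (heterozygous against null, SD, n = 3; limma adjusted p 0.222); the deleted part of the gene is not stated, so this probe set may lie outside it. All 10 ES cell markers were measured, with 3 called lower and 1 higher, and among them Pou5f1, Nanog and Sox2 did not pass the test (adjusted p 0.104, 0.263 and 0.252).

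The summed intensity of 11 fibroblast markers was 593 to 654 in heterozygous and 543 to 684 in null arrays, with Lum, Postn and Twist2 below the filter, as were Afp and Elf5 in the next lists. That of 10 primitive endoderm markers was 3463 to 4151 and 1409 to 1622, and that of 8 trophectoderm markers 11178 to 12482 and 6017 to 6547. That of 7 neural markers was 2446 to 2874 and 2502 to 2840. Similar sums covered changes in both directions: of the neural markers 4 were called higher, Pax6 by 3.81-fold, and 1 lower, the bright Neurod1 by 1.97-fold, and of the 8 fibroblast markers past the filter Dcn rose from 31.0 to 263 units while Col1a1 and Thy1 fell. The median differences of the neural and fibroblast lists were 0.90 and -0.83. Of 9 endoderm markers past the filter, 4 were called lower and 0 higher (median -1.36). Of 7 trophectoderm markers, 4 were lower and 0 higher (median -0.58). Bright genes weigh most in these sums: Col4a1 fell from 1587 to 768 units, Krt8 from 4700 to 2705 and Krt18 from 5244 to 1896. Gata4 (-0.09), Gata3 (0.04) and Tfap2c (0.04) were not called. In bulk RNA, fewer cells of a type and less RNA per cell cannot be told apart, and the part of these markers in the differences below was not tested.

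Most initiation factor transcripts differed little between the lines, and those that differed by more were mostly lower in null cells. A gene is called here when its limma p, adjusted by Benjamini-Hochberg over all 12927 genes, was under 0.05. Of the 43 tested members, 20 were called, a share of 46.5%, against 48.8% of all tested genes, so the total is close to the background. By direction, 15 members were lower (34.9%, background 24.3%) and 5 were higher (11.6%, background 24.5%). The split depends on scaling: with each array centred on its median, which moves the median of all genes from -0.01 to 0.14, 9 members were called lower and 15 higher, and of all genes 2101 lower and 4181 higher in place of 3143 and 3162.

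Differences of a log2 of 0.5 or more were called for 11 members, and 10 of these were lower in null cells. That is 23.3% of the tested members, against 15.6% of all genes for the same rule, and the 1 member higher is 2.33% against 16.4%. With arrays centred on their medians, 9 members were lower and 3 higher by that size. Of all 12927 genes, 1418 were then lower and 2897 higher by that size, in place of 2012 and 2118. A 2-fold difference was called for 1 member, or 2.33%, against 13.4% of all genes. For 19 members all null arrays lay to 1 side of all heterozygous arrays (44.2%, background 57.2%).

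The members are bright genes. Their median log2 intensity was 12.62, against 8.80 for all tested genes, and 36 of the 43 were among the brightest 25% of tested genes. Their median log2 difference, null minus heterozygous as throughout, was -0.09, against -0.01 for all tested genes and 0.00 for the brightest 25%. The median size of a difference was 0.19 in the members, 0.26 in the brightest 25% and 0.42 over all genes. Among these bright genes 59.7% were called, 29.5% higher and 30.3% lower, against 14 of the 36 members (38.9%), 4 higher (11.1%) and 10 lower (27.8%). By 0.5 or more, 23.9% of the bright genes were called and 5 of the 36 members (13.9%).

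**Figure D1:**
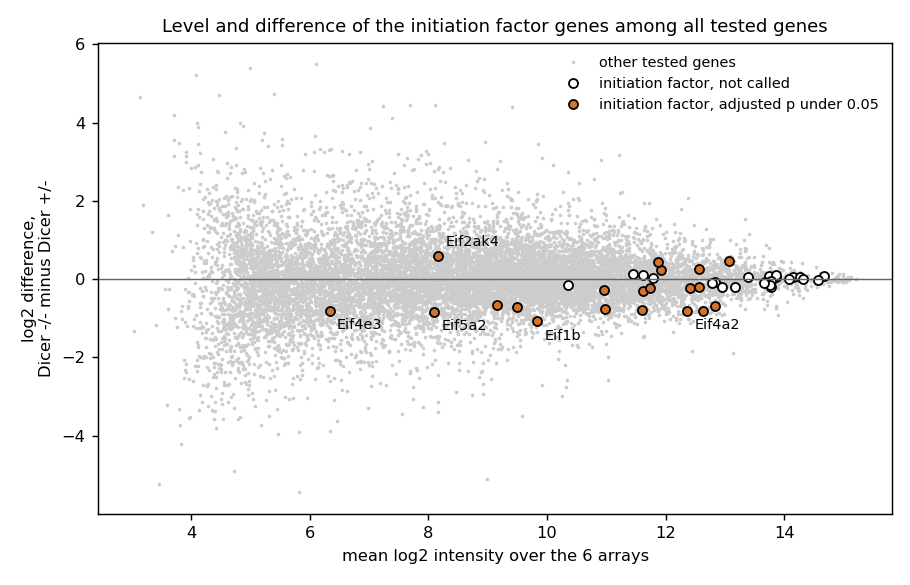
Log2 difference (null minus heterozygous) against the mean log2 intensity over 6 arrays, for all 12927 tested genes (grey) and the 43 initiation factor genes (orange where the adjusted p was under 0.05, white where not). The members lie towards the bright end, with a median log2 intensity of 12.62, and range from -1.08 (Eif1b) to 0.58 (Eif2ak4).

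**Figure D2:**
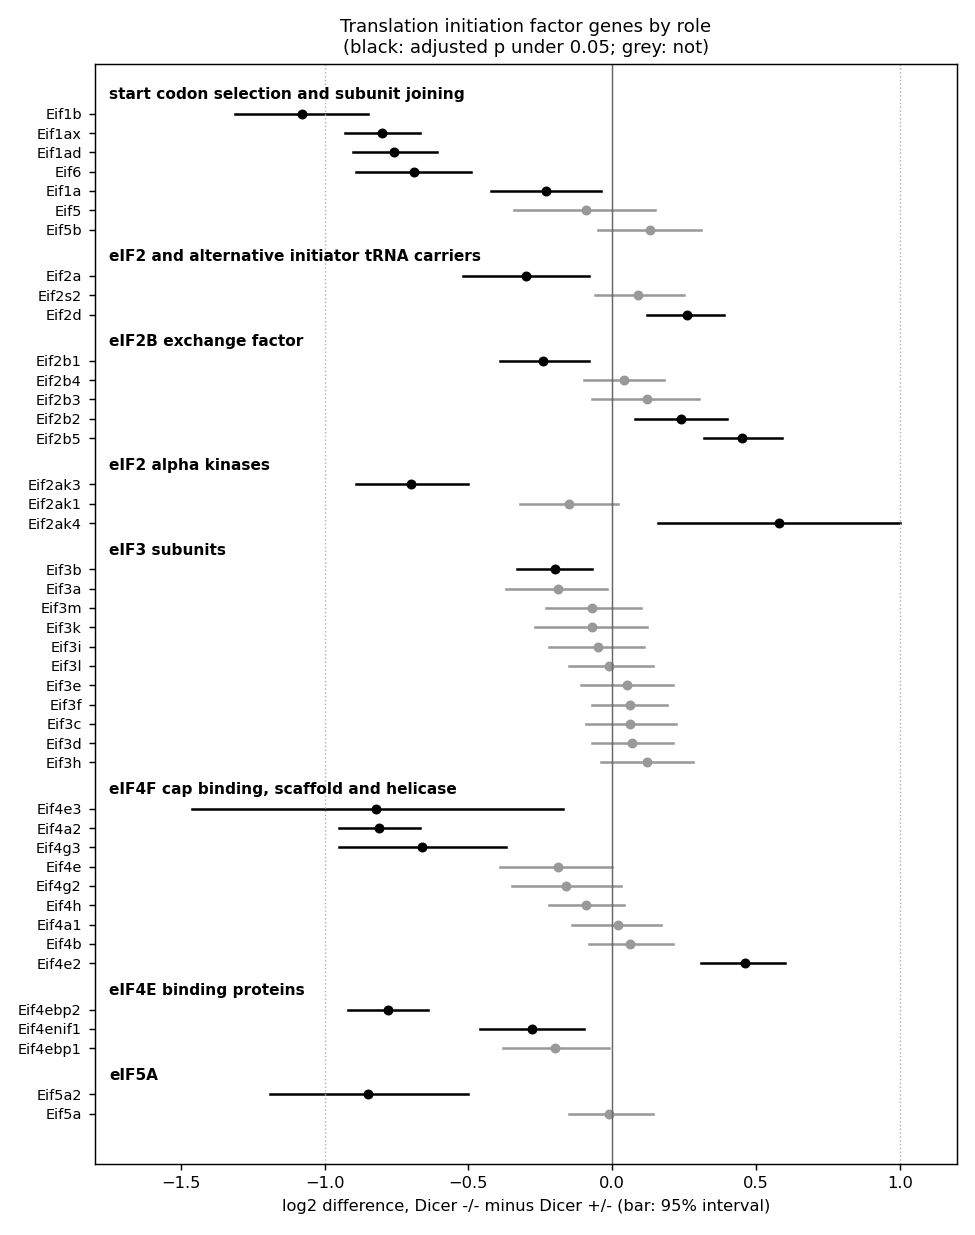
Log2 difference of each tested initiation factor gene, grouped by role, with its 95% interval from the limma fit on 3 arrays per line; black genes had an adjusted p under 0.05. The eIF3 subunits lie between -0.20 and 0.12, while Eif1b, Eif1ax, Eif1ad and Eif6 in the first group lie between -1.08 and -0.69.

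Of 7 genes grouped under start codon selection and subunit joining, 5 were called lower and 0 higher, where 24.3% and 24.5% of all tested genes were. Eif1ad is in this group only by its eIF1A-like domain. Their median of -0.69 was the lowest of the role groups. Eif1b encodes a close relative of eIF1, which guards the choice of start codon. It read 1505, 1225 and 1278 units in the heterozygous arrays and 620, 697 and 577 in the null arrays. Every null array was below every heterozygous array, at 2.11-fold lower (log2 difference -1.08 ± 0.11, SE; adjusted p 8.52e-06). It has 1 probe set on the array.

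Eif1ax, the X-linked gene of eIF1A, read 8394, 8242 and 8364 units in heterozygous and 4525, 4968 and 4864 in null arrays. The groups were far apart, 1.74-fold, with an adjusted p of 1.26e-06. A dimmer probe set differed by -1.25 and the dimmest by -0.52, the last without passing the test over probe sets (adjusted p 0.0842). Tested X-linked genes had a median of -0.15. The autosomal copy Eif1a, on chromosome 18, fell by 0.23 with an adjusted p of 0.0445, and its arrays overlapped. That call was lost in 9 of 19 alternatives, among them without heterozygous replicate 1 or 2 or null replicate 1 or 3, and with centring on medians (-0.07). Its probe set carries the ending _s_at, used for probes shared between related transcripts, so signal from both genes may mix. Its other probe set was at -0.28 and called over probe sets (adjusted p 0.0313).

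Eif1ad, whose product carries an eIF1A-like domain, read 2642, 2667 and 2590 units in heterozygous and 1555, 1558 and 1562 in null arrays. The null arrays were nearly equal and 1.69-fold below the others (adjusted p 3.08e-06). A dimmer probe set gave -0.68. Eif6, which keeps the large subunit from joining too early and takes part in making it, read 9260, 10178 and 8259 units in heterozygous and 6059, 6037 and 5081 in null arrays. It was 1.61-fold lower with no overlap (adjusted p 8.13e-05), and its other probe set gave -0.51.

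Eif5, which triggers GTP hydrolysis on eIF2 at the start codon, was not called on its brightest probe set (7277 ± 665 and 6865 ± 1186; SD, n = 3; adjusted p 0.514). The other probe sets of Eif5 did not all give the same answer. The second brightest was at -0.03. Another of similar brightness read 6341 ± 226 and 3473 ± 364 units, at -0.87 (adjusted p 1.75e-05 over probe sets), and the others were at -0.48 and -0.69, both called. As a mean over its probe sets Eif5 was at -0.43 and was called. Eif5b, the GTPase that joins the subunits, lies on chromosome 1 and differed by 0.13 and 0.16 on its brighter probe sets, not called, but by 1.25 on its dimmest (means of 155 and 368 units; adjusted p 0.000146 over probe sets).

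Of 3 carriers of the initiator tRNA, 1 was called higher and 1 lower, where 24.5% and 24.3% of all tested genes were. The median size of their differences was 0.26, the same as among the brightest 25% of genes. Eif2a, a factor that can deliver the initiator tRNA apart from eIF2, read 3412, 3566 and 3549 units in heterozygous and 3028, 3191 and 2379 in null arrays. The arrays did not overlap, with null replicate 3 the lowest (log2 difference -0.30, adjusted p 0.0253). The call was lost in 6 of 20 alternatives: without heterozygous replicate 2 or 3, with arrays centred, as a mean over probe sets, with eBayes without trend and without the chromosome median. Eif2d, another such factor, rose by 0.26 (5502 ± 138 and 6573 ± 356; adjusted p 0.00581). It lies on chromosome 1, where the median of 726 tested genes was 0.31, so its difference without that median was -0.05.

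Eif2s2, the beta subunit of eIF2, read 25253 ± 1044 and 27001 ± 2232 on its brightest probe set and was not called (adjusted p 0.290). Of its 6 probe sets past the filter, 4 were called higher and 1 lower, from -0.91 to 0.81. The one furthest up read 7074 ± 652 and 12402 ± 504 units, and the one that fell is dim, at 109 ± 15.9 and 57.4 ± 4.73. The gamma subunit genes, left out of the list by rule, went in opposite directions: the X-linked Eif2s3x was at -0.58 (adjusted p 2.1e-05) and the Y-linked Eif2s3y at 0.75 (0.000119).

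The exchange factor eIF2B showed its clearest difference in the catalytic subunit. Eif2b5, which encodes eIF2B epsilon, read 3247, 3200 and 3148 units in heterozygous and 4287, 4498 and 4353 in null arrays. Every null array was higher, by 1.37-fold (adjusted p 8.63e-05). Of the regulatory subunits, Eif2b2 rose by 0.24 and Eif2b1 fell by 0.24, and Eif2b4 was at 0.04 with a 95% interval from -0.10 to 0.18. The Eif2b1 call was lost in 5 of 20 alternatives, among them without heterozygous replicate 1 or 2 and with arrays centred on their medians (-0.08, adjusted p 0.474). The Eif2b2 call was lost in 6 of 19, among them without heterozygous replicate 1 or 3 or null replicate 1 or 2. Eif2b3, the partner of the catalytic subunit, was at 0.12 (adjusted p 0.268). Over the 5 genes, 2 were called higher and 1 lower, where 24.5% and 24.3% of all tested genes were, with a median of 0.12.

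The eIF2 alpha kinases, which shut down initiation under different stresses, went in different directions. Eif2ak3 encodes PERK, the kinase of endoplasmic reticulum stress. It read 925, 963 and 854 units in heterozygous and 573, 566 and 551 in null arrays, 1.62-fold lower with no overlap (adjusted p 6.03e-05). Eif2ak4 encodes GCN2, the sensor of amino acid shortage, and read 221, 208 and 280 units in heterozygous and 272, 350 and 452 in null arrays. These groups overlapped, at a log2 difference of 0.58 ± 0.19 (SE) with an adjusted p of 0.0247. The Eif2ak4 call was lost without heterozygous replicate 1 or 2 or null replicate 2 or 3, and with eBayes without an intensity trend.

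Eif2ak1, the heme-regulated kinase HRI, was at -0.15 and not called (adjusted p 0.127). The kinase of double-stranded RNA, Eif2ak2, is induced by interferon and left out of the list by rule. It was at 0.55 on its brightest probe set (274 ± 34.3 and 398 ± 14.5; adjusted p 0.0042). A second read 146 ± 14.8 and 335 ± 21.1, and the dimmest was at -0.13 and not called.

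**Figure D3:**
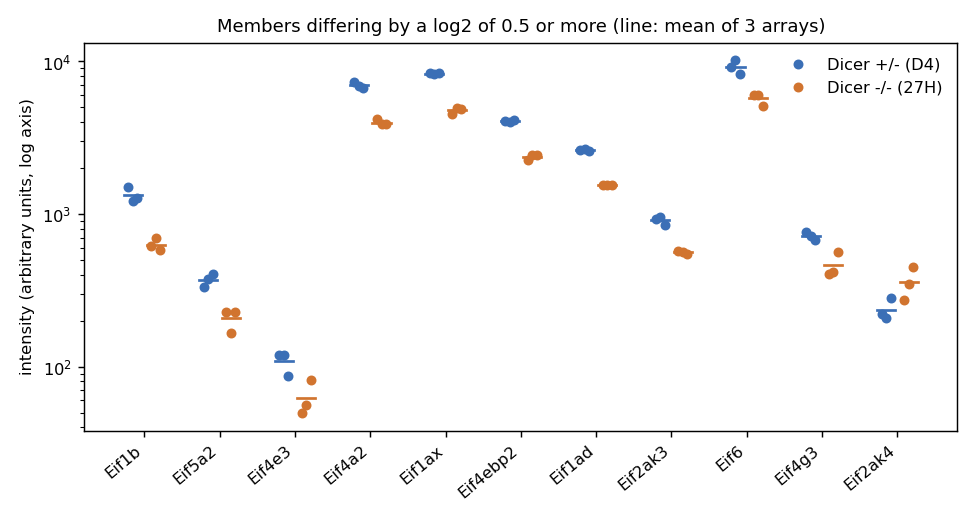
Intensity on each array, on a log axis, of the 11 initiation factor genes called with a log2 difference of at least 0.5; points are arrays, 3 per line, and bars their means. The lines do not overlap in 10 genes, all lower in null cells, and overlap in Eif2ak4, at 208 to 280 and 272 to 452 units. As the genes were chosen by call and size, separation was largely fixed in advance, and 57.2% of all tested genes separated the lines.

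The listed subunits of eIF3, the scaffold on the small subunit, stayed close together, and Eif3g and Eif3j are not among them. Of 11 members, 1 was called lower and 0 higher, where 24.3% and 24.5% of all tested genes were. All 11 differed by at most 0.25 (10 with arrays centred on their medians, 9 as means over probe sets), as did 48.2% of the genes in the brightest 25%. That comparison is not matched in level: the median log2 intensity was 13.77 for the subunits and 11.64 for those genes. The median difference of the subunits was -0.01. Eif3b, a core subunit, read 6273, 6637 and 6422 units in heterozygous and 5441, 5561 and 5835 in null arrays. The arrays did not overlap, but the difference was small (-0.20 ± 0.06, SE; adjusted p 0.0168), and the call was lost in 6 of 20 alternatives, among them without heterozygous replicate 2, null replicate 1 or null replicate 2.

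The 10 uncalled eIF3 subunits had 95% intervals that together spanned -0.37 (Eif3a) to 0.28 (Eif3h). Eif3a, the largest core subunit, was at -0.19 on its brightest probe set (adjusted p 0.0672) and at -0.50 on another (5804 ± 419 and 4093 ± 309), which was called over probe sets. Its dimmest probe set, at -0.37, was also called (adjusted p 0.0393 over probe sets), and its second brightest, at -0.14, was not. Eif3d, a subunit that can bind the cap itself, was at 0.07, and Eif3e at 0.05 on a probe set of 19440 ± 349 and 20152 ± 1965 units. Null replicate 3 was the lowest null array in 9 of the 11 subunits and in 25 of the 43 members, against 37.6% of all tested genes. Heterozygous replicate 3 was likewise the lowest of its line in 7 of the 11 and 22 of the 43 (38.9% of all tested genes). Without null replicate 3, 27 members were called in place of 20, 9 of them higher and 18 lower. Of the 12569 genes then tested, 2991 were called higher and 3118 lower.

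Of 9 genes of eIF4F and its relatives, 3 were called lower and 1 higher, where 24.3% and 24.5% of all tested genes were. Eif4e and Eif4a1 did not pass the test on their brightest probe sets, and the scaffold gene Eif4g1 was not analysed here. Eif4a2, a second eIF4A helicase, read 7328, 6895 and 6692 units in heterozygous and 4174, 3867 and 3879 in null arrays. It was 1.75-fold lower without overlap (log2 difference -0.81, adjusted p 1.82e-06). Eif4a1, the main eIF4A, read 20199 ± 1259 and 20452 ± 1387, a difference of 0.02 with a 95% interval from -0.14 to 0.17. It lies on chromosome 11, where the median of 1097 tested genes was 0.29, and without that median it was at -0.27 (adjusted p 0.00736). The dimmest of its 3 probe sets was called higher over probe sets (17705 ± 785 and 20734 ± 693; 0.23, adjusted p 0.00987).

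Eif4g3, a scaffold related to eIF4G1, read 768, 716 and 681 units in heterozygous and 404, 416 and 562 in null arrays. It was 1.58-fold lower with no overlap (adjusted p 0.00142), but the mean over its 3 probe sets, of which the others were dim, was at 0.12. Eif4g2 (DAP5), which lacks the eIF4E-binding part, was not called on its brightest probe set (-0.16, adjusted p 0.154), while its next brightest ones were called over probe sets, at -0.23 and -0.51.

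The cap-binding eIF4E itself was not called at -0.19 (adjusted p 0.0894). Eif4e3, a dim relative, read 119, 119 and 86.7 units in heterozygous and 49.7, 55.7 and 81.2 in null arrays. The groups did not overlap, but null replicate 3 came close to the lowest heterozygous array (log2 difference -0.82 ± 0.29, SE; adjusted p 0.0389). The call was lost in 8 of 19 alternatives, among them without heterozygous replicate 1 or 2 or null replicate 1 or 2. Eif4e2 (4EHP), which binds caps without recruiting eIF4G and so represses translation, rose by 0.46 (7313 ± 523 and 10015 ± 401; adjusted p 0.000188). It lies on chromosome 1 and was at 0.15 and not called without the chromosome's median. Its 5 probe sets ranged from -0.23 to 0.82. Without probe sets ending in _a_at, _s_at or _x_at the gene was at -0.23. That leaves out its brightest ones, at 0.46 and 0.29, both called higher over probe sets. The helicase partners Eif4b and Eif4h were at 0.06 and -0.09, not called.

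The binding proteins that hold eIF4E away from eIF4G were lower or not called. Eif4ebp2 read 4074, 4019 and 4164 units in heterozygous and 2262, 2447 and 2435 in null arrays. It was 1.72-fold lower with no overlap (adjusted p 2.45e-06), and all 4 of its probe sets past the filter were called lower, from -1.03 to -0.78. Eif4ebp1, the better known member, was at -0.20 (9860 ± 1078 and 8587 ± 550; adjusted p 0.0761), and an equally bright probe set at -0.29 was called over probe sets. Eif4enif1 (4E-T), which carries eIF4E into the nucleus and to processing bodies, fell by 0.28 (adjusted p 0.0154), or by 0.57 without the median of chromosome 11. The Eif4enif1 call was lost without heterozygous replicate 1 or null replicate 2, with centred arrays and with eBayes without trend.

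Of the eIF5A genes, whose protein helps ribosomes through difficult peptide bonds and is the carrier of hypusine, 1 was lower and 1 was not called. Of all tested genes 24.3% were called lower. Eif5a2 read 331, 374 and 404 units in heterozygous and 227, 167 and 227 in null arrays. It was 1.80-fold lower with no overlap (adjusted p 0.000913), and its other probe set gave -1.46. Eif5a, the abundant form, read 24286 ± 1294 and 24180 ± 1491 (-0.01, 95% interval from -0.15 to 0.14), and its dimmer probe set was at -0.27 and called over probe sets. Without the median of chromosome 11, Eif5a was at -0.30 and called (adjusted p 0.0031).

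Related genes could be set against each other on the same array, which removes the array's own scaling. For 7 pairs, chosen with their values known, the log2 ratio of the second gene to the first was taken on each array and its mean compared between the lines. The ratio of Eif4a2 to Eif4a1 was lower by 0.83 in null arrays, that of Eif5a2 to Eif5a by 0.84, and that of Eif4ebp2 to Eif4ebp1 by 0.58. The ratio of Eif1ax to Eif1a changed by -0.57, that of Eif4g3 to Eif4g2 by -0.50, and that of Eif4e2 to Eif4e by 0.65. In these 6 pairs the lines were fully separated, while for Eif4e3 to Eif4e (-0.62) they overlapped. As the pairs were chosen by their values, separation was largely fixed in advance, and 57.2% of all tested genes separated the lines singly. The ratios also depend on the probe set: Eif4g2 was at -0.16 on the one used and at -0.51 on a dimmer one. With each gene's chromosome median subtracted, an adjustment chosen after seeing the data, the changes shrank to -0.46 for Eif4a2 to Eif4a1, -0.49 for Eif5a2 to Eif5a and 0.29 for Eif4e2 to Eif4e, and the other 4 lay between -0.67 and -0.46. An exact two-sided permutation test of 3 arrays against 3 cannot go below p = 0.1, the value of the 6 pairs (0.117 adjusted over the 7; 0.2 for Eif4e3 to Eif4e).

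**Figure D4:**
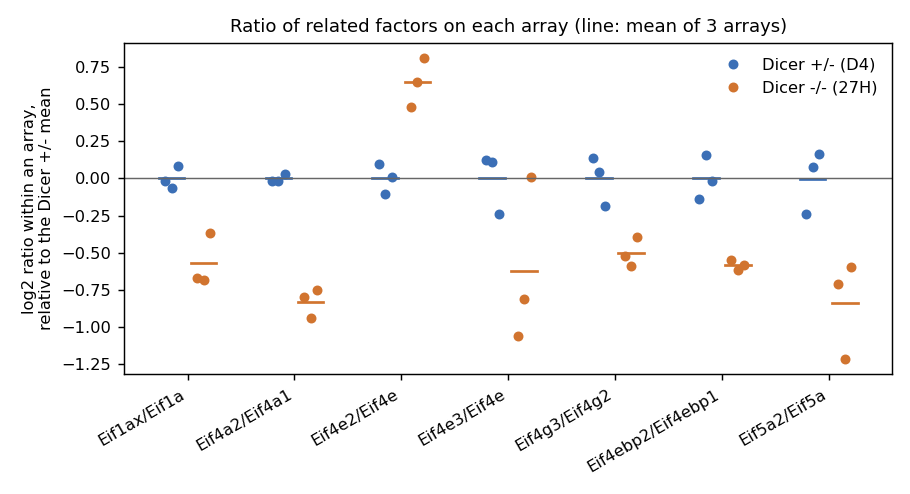
Log2 ratio of 2 related factors within each array, relative to the mean of the 3 heterozygous arrays; points are arrays and bars the means of a line. The null arrays lie lower by 0.50 to 0.84 in 6 pairs and higher by 0.65 for Eif4e2 to Eif4e, with overlap between the lines only for Eif4e3 to Eif4e. Chromosome medians are not subtracted here; with them subtracted Eif4a2 to Eif4a1 is at -0.46, Eif5a2 to Eif5a at -0.49 and Eif4e2 to Eif4e at 0.29.

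Promoters are shown for the unlike pair Eif4a1 and Eif4a2, and for Eif1b and Eif5a2, the 2 members with the largest decreases. Each window runs from 250 bases before to 50 after the start used in a table of RefSeq promoters on GRCm38.p6, 5′ to 3′ on the gene's strand. For Eif5a2 that start lies inside the annotated gene, which begins at base 28781032 of chromosome 3. Capitals mark exact matches, on either strand, to the E-box CACGTG, the CCAAT box or the ETS factor core CCGGAAG; the 3 other motifs searched for had no match here. No matches overlapped.
Eif4a1, chr11:69672374-69672673, minus strand: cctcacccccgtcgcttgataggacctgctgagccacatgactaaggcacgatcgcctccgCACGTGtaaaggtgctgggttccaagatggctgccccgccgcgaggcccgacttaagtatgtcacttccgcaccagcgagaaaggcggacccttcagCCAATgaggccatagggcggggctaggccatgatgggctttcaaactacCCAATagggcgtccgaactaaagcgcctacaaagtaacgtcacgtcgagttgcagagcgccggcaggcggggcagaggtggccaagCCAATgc
Eif4a2, chr16:23107218-23107517, plus strand: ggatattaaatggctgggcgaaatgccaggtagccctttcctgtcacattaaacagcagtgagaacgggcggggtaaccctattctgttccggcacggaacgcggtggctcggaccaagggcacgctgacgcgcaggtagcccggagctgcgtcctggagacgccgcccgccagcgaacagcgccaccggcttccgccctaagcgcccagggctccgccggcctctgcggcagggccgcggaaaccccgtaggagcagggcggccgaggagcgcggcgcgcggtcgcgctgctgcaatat
Eif1b, chr9:120492356-120492655, plus strand: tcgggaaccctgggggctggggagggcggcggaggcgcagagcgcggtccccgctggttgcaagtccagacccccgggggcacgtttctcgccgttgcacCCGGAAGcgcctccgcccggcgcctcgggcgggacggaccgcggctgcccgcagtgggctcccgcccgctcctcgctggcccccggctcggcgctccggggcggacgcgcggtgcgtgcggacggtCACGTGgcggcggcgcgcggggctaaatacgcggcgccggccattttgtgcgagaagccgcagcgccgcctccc
Eif5a2, chr3:28781027-28781326, plus strand: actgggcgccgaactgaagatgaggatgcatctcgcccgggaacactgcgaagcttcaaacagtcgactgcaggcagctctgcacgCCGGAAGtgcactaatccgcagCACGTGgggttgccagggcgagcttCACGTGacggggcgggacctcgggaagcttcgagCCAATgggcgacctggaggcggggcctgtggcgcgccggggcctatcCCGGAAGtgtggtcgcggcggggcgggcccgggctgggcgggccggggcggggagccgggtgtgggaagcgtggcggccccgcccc

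The helicase pair differ in these letters. The Eif4a1 window holds 1 E-box and 3 CCAAT boxes, and the Eif4a2 window none of the searched motifs, with a GC content of 60.7% and 67.7%. Of the 35 members with a window in the table, 13 (37.1%) held the ETS core, against 17.4% of the 10430 tested genes with a window and 9.12% of all 27025 genes. An E-box was in 7 members (20%; 10.2% and 7.24%) and a CCAAT box in 12 (34.3%; 38.7% and 37.9%). The CRE, TGACGTCA, was in 0 members (3.13% and 1.88%), the YY1 motif in 0 (1.56% and 0.699%) and the NRF1 motif in 1 (2.01% and 0.977%). Among the 8 members with a window that were lower by at least 0.5, 5 held the ETS core, 2 an E-box, 2 a CCAAT box and 0 any of the others. A match describes the letters and not a bound site.

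Probe sets of 1 gene can read different ends or forms of its transcripts. Of the 29 members with several probe sets past the filter, 8 had probe sets within 0.20 of each other and 11 had a range over 0.5. Of 106 member probe sets tested, 46 were called (43.4%), against 40.1% of all 26545 probe sets tested. Wide ranges came from dim probe sets in Eif3l, Eif4h and Eif4g3, while in Eif5 both the called and the uncalled probe sets include bright ones.

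**Figure D5:**
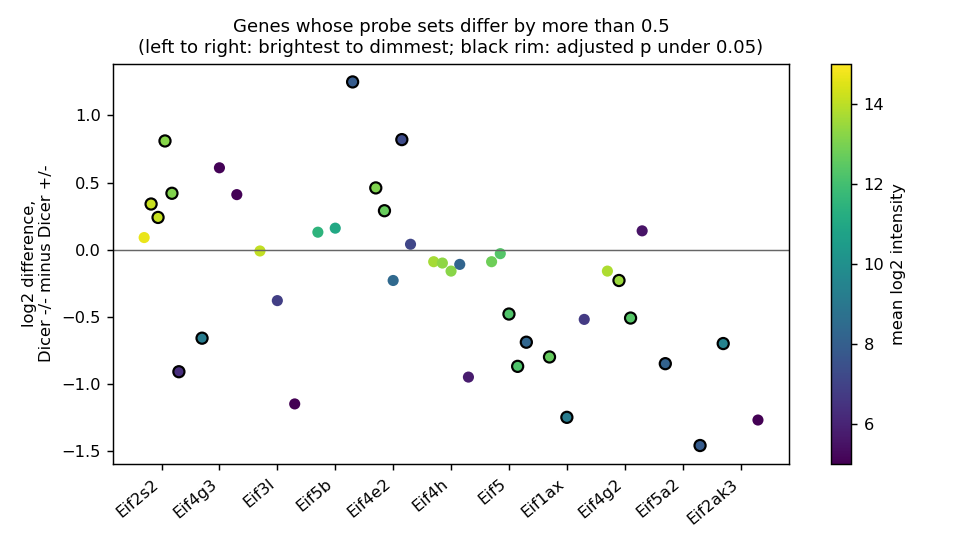
Log2 difference of every probe set past the filter, for the 11 initiation factor genes whose probe sets ranged over more than 0.5; colour is the mean log2 intensity, a black rim marks an adjusted p under 0.05 over probe sets, and probe sets run from brightest to dimmest within a gene. Eif2s2 ranges from -0.91 to 0.81 and Eif5 from -0.87 to -0.03.

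Other genes of translation give the surroundings of these members, and the counts below stand beside 24.3% of all tested genes called lower and 24.5% called higher. Of 12 measured cap and poly(A) partners of initiation, 6 were called lower and 2 higher, with a median of -0.29. Mcts1 and Denr, whose products act as a pair in reinitiation and in recycling of the small subunit, fell from 5814 ± 311 to 2764 ± 237 (-1.07, adjusted p 7.86e-07) and from 6395 ± 341 to 3924 ± 280 (-0.71, adjusted p 1.24e-05; SD, n = 3). Pabpc4, a poly(A)-binding protein, fell by 0.89, and Mcts1 is X-linked.

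Of 14 elongation and termination factors, 6 were lower and 2 higher, with a median of -0.19. Eefsec, the elongation factor for selenocysteine, rose from 889 ± 83.3 to 1878 ± 205 (1.08). Eef2k, the kinase that inhibits eEF2, rose by 0.71, and Eef1e1, a part of the multi-synthetase complex, fell by 0.68. Of 13 genes of mTORC1 and MNK control of eIF4E, 1 was called, Mlst8 (a subunit shared by the mTOR complexes; -0.87, adjusted p 0.000714), with a median of 0.02.

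Among 5 genes of hypusine and polyamine synthesis, which supply the modification of eIF5A, 2 were lower and 1 higher. Odc1, which makes putrescine, fell from 16883 ± 1197 to 9965 ± 487 and Srm, spermidine synthase, from 13452 ± 324 to 7964 ± 394, both at -0.76. Azin1, which relieves the inhibition of ornithine decarboxylase, rose by 0.24, a call lost in 6 alternatives, among them without heterozygous replicate 2 or 3 or null replicate 1 or 2.

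Downstream of eIF2 phosphorylation, 4 of 11 genes measured were lower and 2 higher, with a median of -0.23. Ppp1r15a (GADD34), which brings a phosphatase to eIF2, fell from 1209 ± 5.18 to 641 ± 39.8 (-0.92, adjusted p 5.1e-06). Trib3, a target of ATF4, fell by 0.54 and the factor Atf5 rose by 0.53. The Trib3 call was lost without heterozygous replicate 1 or null replicate 1 or 2. Of 6 genes of tRNA modification and charging, not all of them particular to the initiator tRNA, 3 were lower and 1 higher. The tRNA methyltransferase genes Trmt61a (-0.64) and Trmt5 (-0.42, not called with arrays centred on their medians) fell. Aimp1, a scaffold of the multi-synthetase complex, rose by 0.27. The third lower gene was Trmt6, the partner of Trmt61a (-0.25), named after its value was seen.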

How the data were processed

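Transcripts were measured on 6 arrays, 3 per line, grouped by sample title. The deposited file holds 1 linear intensity for each probe set and array, scaled so that an array's mean, without the 2% at either extreme, is 500 units. GCRMA is the only tool in the submitters' processing notes; the step it served is not given in the sources used here. Intensities were turned into log2 after raising values under 1 to 1. Leaving aside 64 control probe sets, 34945 had 1 gene symbol, 932 several and 9160 none; genes were matched to GRCm38.p6.

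The brightest probe set by mean log2 value stood for its gene if it reached 5 in at least 3 arrays. The test was limma's (version 3.58.1, R 4.3.3; lmFit and eBayes with a trend on intensity, line as the only factor). P-values are two-sided and Benjamini-Hochberg adjusted over all genes, or over probe sets where stated. Fold changes come from mean log2 values. Precision is limited by having 3 arrays per line.

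On simulated data with the same 12927 genes, the fit called 46% of the 50 genes changed by 0.5, 50% at 0.75, 64% at 1 and 74% at 1.5. Among genes above the median level it called 22 of 30, 21 of 27, 24 of 26 and 22 of 22. Of 12727 unchanged genes 3 were called. Nearly all genes were thus unchanged in the simulation, while 6305 of 12927 were called in the data (48.8%). The Benjamini-Hochberg cut-off was therefore stricter there, so these rates are not the sensitivity of the fit to the real data.

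The members and gene lists were chosen with earlier results of these data known. Array values are given for members called with a log2 difference of at least 0.5, and otherwise for the member of a role group that differs most; up to 3 called genes per other list are named.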

Additional observations from a re-analysis of the deposited data

How the results depend on the processing

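Counts of members and member differences were recomputed under 20 alternatives, of which 11 members had a value in 19. The related-gene ratios were recomputed with chromosome medians subtracted, and motif counts under none. Of the 20 called members, 9 kept direction and call in all of them: Eif1b, Eif1ax, Eif1ad, Eif6, Eif2ak3, Eif2b5, Eif4a2, Eif4ebp2 and Eif5a2. Over all members, calls were lost in 52 and gained in 41 of 849 values, and 28 values of uncalled members changed sign. Direction reversed for Eif2d (-0.05) and Eif4a1 (-0.27) with the chromosome median subtracted, and for Eif4g3 (0.12) as a mean over probe sets. It also reversed for Eif4e2 (-0.23) without probe sets ending in _a_at, _s_at or _x_at, where another probe set takes over. With arrays centred on their medians, 15 members were called higher and 9 lower and their median was 0.07. Without probe sets of those endings, which leaves 33 members, 1 was called higher and 15 lower, and the median was -0.19. Of the 11278 genes then tested, 2650 were called higher and 2712 lower. With eBayes without trend, 13 members were called, 3 of them higher, and of all 12927 genes 2793 were called higher and 2754 lower. Leaving out each array gave 15 to 27 members called, 3 to 9 higher and 12 to 18 lower, with a median of -0.11 to -0.07. Of the 12521 to 12583 genes tested in those fits, 2737 to 2993 were called higher and 2540 to 3118 lower. The count of higher members was 3 without heterozygous replicate 1 or null replicate 2 and 9 without null replicate 3; the cause was not tested.

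The medians of chromosomes 1 and 11 were 0.26 and 0.23 with no filter, 0.33 and 0.30 with a log2 filter of 7, and 0.46 and 0.44 with centred arrays. They were 0.27 and 0.26 with values under 32 raised to 32, 0.29 and 0.26 with log2(value + 16), 0.28 and 0.25 as means over probe sets, and 0.33 on chromosome 1 with quantile normalization. Leaving out each array gave 0.30 to 0.32 and 0.27 to 0.28.

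With the replicate number as a block, 22 members were called, 17 of them lower. Over all genes 3427 were then called higher and 3392 lower, in place of 3162 and 3143. Deviations of same-numbered arrays from their line means correlated weakly across genes, at 0.03, 0.03 and 0.08. Each array correlated best with its own number, a hint of pairing from the data and not the design.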
